A study of Mus musculus with 9 samples.

Results

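The Janus kinases (JAKs) and the signal transducers and activators of transcription (STATs) were followed at the transcript level in mouse myeloid cells: Jak1, Jak2, Jak3, Tyk2, Stat3, Stat4, Stat5a, Stat5b and Stat6. The 9 genes were taken by symbol from a table of 24421 genes, and all 9 were among the 13270 genes with enough counts to be tested. Lineage-depleted bone marrow cells, which still hold progenitors of several lineages, were grown for 5 days in interleukin 3 (IL-3), interleukin 6 (IL-6) and stem cell factor into cultures the submitters call blast-like. Of the 9 libraries, 3 came from wild-type (WT) C57BL/6 cells given vehicle, 3 from Tet2-/-Flt3ITD cells given vehicle for 24 h, and 3 from Tet2-/-Flt3ITD cells given SHP099 for 24 h. The mutant cells are labelled as null for Tet2, whose product oxidises methylated cytosine in DNA, and as carrying the internal tandem duplication (ITD) of Flt3, a receptor kinase of progenitors. SHP099 holds the phosphatase SHP2, the product of Ptpn11, in its closed and inactive form. The mutant cultures were set up from individual mice. The labels give neither individual mice for the WT cells, nor an hour of vehicle treatment for them, nor a dose of SHP099, an age, or the design of the Tet2 and Flt3 alleles, and no WT cells received SHP099. The spread between the WT libraries may therefore be technical, and p-values that use it measure only the spread between these samples. The main model estimated the spread from all 9 libraries together. The WT spread thus entered the p-values of every comparison, SHP099 against vehicle in mutant cells included.

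JAKs are tyrosine kinases bound to the inner part of cytokine receptors that have no kinase of their own. When a cytokine brings the receptor chains together, the JAKs phosphorylate each other, the receptor and then a STAT, which forms a dimer, enters the nucleus and binds DNA. In myeloid cells JAK2 serves the IL-3, GM-CSF and erythropoietin receptors and works mainly through STAT5, while IL-6 signals through gp130, JAK1 and STAT3. FLT3 with an internal tandem duplication is known to activate STAT5. These steps act on proteins, and the libraries measured transcripts only.

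As checks of the labels, Tet2 stood at 31.8 to 34.8 CPM (counts scaled to library size) in WT libraries and at 10.9 to 17.0 CPM in the 6 mutant libraries, and all 10 myeloid progenitor markers passed the filter, with summed levels of 12649 to 21024 CPM. Flt3 was low, at no more than 3.01 CPM in any library, and counts per gene show neither the duplication nor which part of Tet2 is deleted. Defining T and NK cell markers were near 0 (9 of 11 under 1 CPM in every library, the list's sum of 108 to 179 CPM being mostly Nkg7), as were 5 of 6 B cell markers. Total counts ran from 27242168 to 45810089 per library, and the ribosomal RNA gene Rn45s took 4.33% of counts in SHP099 replicate 3 against 0.276% to 0.734% elsewhere.

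Stat5a and Stat5b need care before their values are read, because they are near-identical neighbours. Stat5a (chromosome 11, 100859351 to 100885169, plus strand, GRCm38) has 20 exons and Stat5b (chromosome 11, 100780731 to 100850724, minus strand) has 19. They lie head to head, with 8627 bases between their starts. Their longest coding transcripts share 14 identical stretches of 30 bases or more, 1256 bases in all. The longest, of 324 bases, is coding sequence (exons 7 to 9 of Stat5a, exons 6 to 8 of Stat5b). The next 2 are printed because a read wholly inside them matches both genes; the first spans chr11:100865396-100874021 (exons 6 to 7) of Stat5a and the second chr11:100861770-100863131 (exons 4 to 5), both on the plus strand with the introns left out.
Stat5a and Stat5b, shared stretch of 129 bases: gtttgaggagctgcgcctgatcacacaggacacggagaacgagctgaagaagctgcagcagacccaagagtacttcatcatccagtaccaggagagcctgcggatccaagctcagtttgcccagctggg
Stat5a and Stat5b, shared stretch of 109 bases: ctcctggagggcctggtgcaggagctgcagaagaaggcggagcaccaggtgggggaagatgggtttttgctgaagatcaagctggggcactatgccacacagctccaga
Of all windows of 50 bases in the Stat5a transcript, 16.4% also occur in other transcripts, nearly all in Stat5b, and 6.99% of windows of 100 bases do. For Stat5b the shares are 11.8% and 5.18%. Neither the read length nor the treatment of such reads in the counting is given in the sources used here, so the levels of these 2 genes carry that uncertainty.

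Other members also share exon bases with genes beside them. The 3′ ends of Stat5a and Stat3 (chromosome 11, 100885098 to 100939540, minus strand) overlap by 72 bases on opposite strands. Jak3 (chromosome 8, 71676296 to 71690575) shares 404 exon bases with Insl3 on the same strand, and Insl3 itself had 7 to 23 counts in a library. Tyk2 (chromosome 9, 21104068 to 21131243) shares 554 exon bases with an antisense transcript, and Stat4 (chromosome 1, 51987148 to 52107189) shares 1033 with Gm28177, neither of which was analysed here. For Jak1 (chromosome 4, 101152367 to 101265282), Jak2 (chromosome 19, 29251828 to 29313080) and Stat6 (chromosome 10, 127642986 to 127660957), 0% of 50-base windows occur in another transcript. The same holds for the longest coding transcript of Tyk2. On opposite strands, Stat6 shares 40 exon bases with Nab2 and Jak1 shares 4 with Raver2.

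The region before the transcription start differs widely among the 9 genes. RefSeq promoter windows on GRCm38.p6 were matched for all 9, with 12 windows in all because Stat4, Stat5a and Stat5b each have 2 annotated starts. In the 250 bases upstream, neither STAT-type motif searched, TTCNNNGAA (both strands) or TTCNNNNGAA (both strands), was found in any of the 12 windows; they occur in 7.02% and 5.85% of 32851 promoter windows. The 250 bases before the Jak2 start hold 37 CpG pairs, more than 97.8% of windows, where the median window holds 6. The Stat5b window at the head-to-head side holds 40, more than 98.7%, and the Stat5a window with more CpG pairs holds 21. The Jak2 sequence is shown because Jak2 had the largest fitted difference between genotypes, and those of the Stat5 pair because the 2 genes are compared below; capitals mark CpG pairs, and for the pair only bases outside annotated exons are printed. They are chr19:29251553-29251802 (plus strand), chr11:100850725-100850831 (minus strand) and chr11:100860234-100860344 (plus strand). The Stat5a stretch lies before the later of its 2 annotated starts, and so inside the gene model, which begins at 100859351.
Jak2, upstream 250 bases: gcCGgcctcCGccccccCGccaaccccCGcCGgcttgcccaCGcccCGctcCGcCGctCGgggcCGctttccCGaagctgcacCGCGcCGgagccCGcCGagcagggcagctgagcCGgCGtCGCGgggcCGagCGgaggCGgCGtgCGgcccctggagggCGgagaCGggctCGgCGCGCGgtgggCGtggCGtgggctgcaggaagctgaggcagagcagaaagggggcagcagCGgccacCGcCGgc
Stat5b, upstream part: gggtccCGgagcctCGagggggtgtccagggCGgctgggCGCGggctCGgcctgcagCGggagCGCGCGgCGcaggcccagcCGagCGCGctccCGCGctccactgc
Stat5a, upstream part: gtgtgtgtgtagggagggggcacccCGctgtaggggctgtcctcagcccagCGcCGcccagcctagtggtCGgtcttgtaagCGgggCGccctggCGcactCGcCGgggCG
The sequences describe the sites only. Methylation was not measured in these libraries.

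Levels were compared between genes per kilobase of the longest coding transcript. In WT cells Jak1 was the most abundant of the 9, at 66.2 ± 2.87 CPM per kb (SD, n = 3), a level above that of 90.7% of tested genes. Stat6 followed at 46.2 ± 4.25 CPM per kb and Jak2 at 41.2 ± 0.795 CPM per kb. Below them came Stat3 at 30.5, Tyk2 at 26.2, Stat5b at 21.3, Stat5a at 18.5, Jak3 at 14.8 and Stat4 at 11.4 CPM per kb. Even Stat4, the STAT best known from T and NK cells, was above 55.9% of tested genes. No neighbours in this WT order overlapped between their 3 libraries, Stat6 and Jak2 being the closest at a ratio of 1.12.

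The order was the same in the SHP099-treated mutant cells, again without overlap between neighbours. In mutant vehicle cells it changed at 1 place: Stat5a, at 20.3 ± 0.258 CPM per kb, stood above Stat5b, at 19.96 ± 0.305 CPM per kb, and their libraries overlapped. With the mean length of all coding transcripts as divisor Stat5a stood above Stat5b in all 3 groups (29.5 against 21.6 CPM per kb in WT cells), so the order of these 2 rests on the length chosen. Jak1, Stat6, Jak3 and Stat4 kept their ranks with that divisor.

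**Figure D1:**
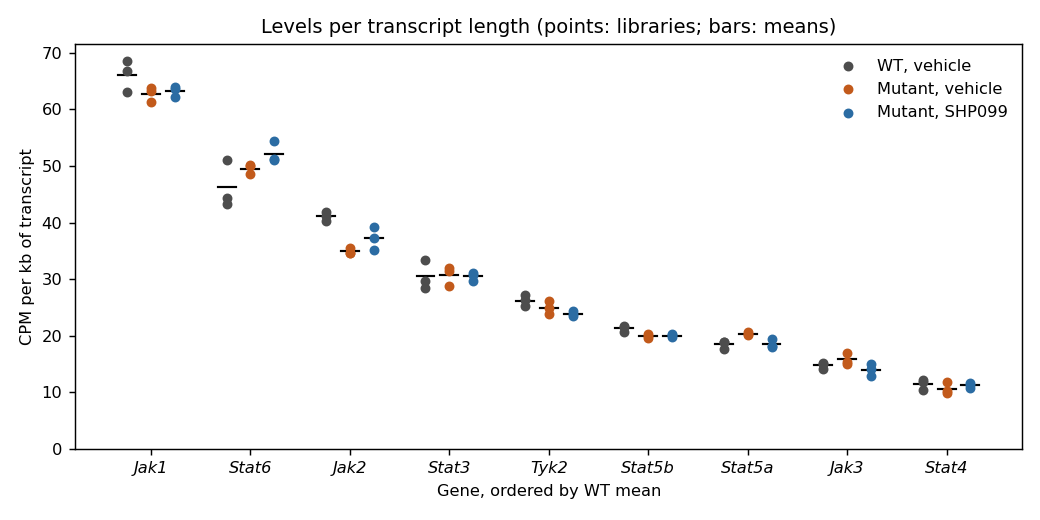
Levels of the 9 genes in CPM per kb of the longest coding transcript (vertical axis), ordered by the WT mean (horizontal axis); points are libraries and bars are means of 3. Jak1 stands at the top with 66.2 CPM per kb in WT cells, Stat4 at the bottom with 11.4, and the Stat5a and Stat5b libraries overlap in mutant vehicle cells.

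Within the JAK family, Jak1 made up 44.6 ± 0.861% of the summed level per length in WT cells, Jak2 27.8 ± 0.707%, Tyk2 17.7 ± 0.196% and Jak3 9.97 ± 0.580%. Jak2 took 25.2 ± 0.415% in mutant vehicle cells and 26.9 ± 0.649% with SHP099. Jak3, which pairs with receptors that use the common gamma chain, took 11.4 ± 0.555% and 10.1 ± 0.468%.

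The first comparison asks what the inhibitor does to these transcripts in the mutant cells. The 9 genes moved little: their median absolute log2 fold change was 0.08, against 0.15 over all tested genes, and the largest was 0.18. The medians were not matched for level, and the tested genes include many at lower levels than the members. Stat5a was called lower, and no other member passed the test, in the model of all 9 libraries, which does not use the replicate pairs. Called members were thus 1 of 9, where 21.8% of all tested genes were called (adjusted p under 0.05), 8.81% higher and 13% lower. With the replicate block on the 6 mutant libraries Jak3 and Stat5a passed, where 42.8% of tested genes did. Jak3, Stat5a and Stat6 were the members whose 3 SHP099 libraries did not overlap the 3 vehicle libraries, 3 of 9 where 40.7% of tested genes were so separated, 18.3% higher and 22.4% lower. Markers of some maturing cells moved with the treatment. Of 11 neutrophil markers 4 were called higher (summed level 17654 to 18721 CPM with vehicle, 25516 to 30502 CPM with SHP099). So were 4 of 10 mast cell and basophil markers (1117 to 1643 CPM against 1640 to 2200.5 CPM), 3 of 7 monocyte and macrophage markers and 2 of 6 megakaryocyte markers. None in these lists was called lower. Other lists did not follow: 1 of 3 eosinophil markers was called lower and 0 higher, and 0 of 5 tested erythroid and 0 of 4 tested dendritic cell markers were called. The part of these lists in the differences below was not tested.

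**Figure D2:**
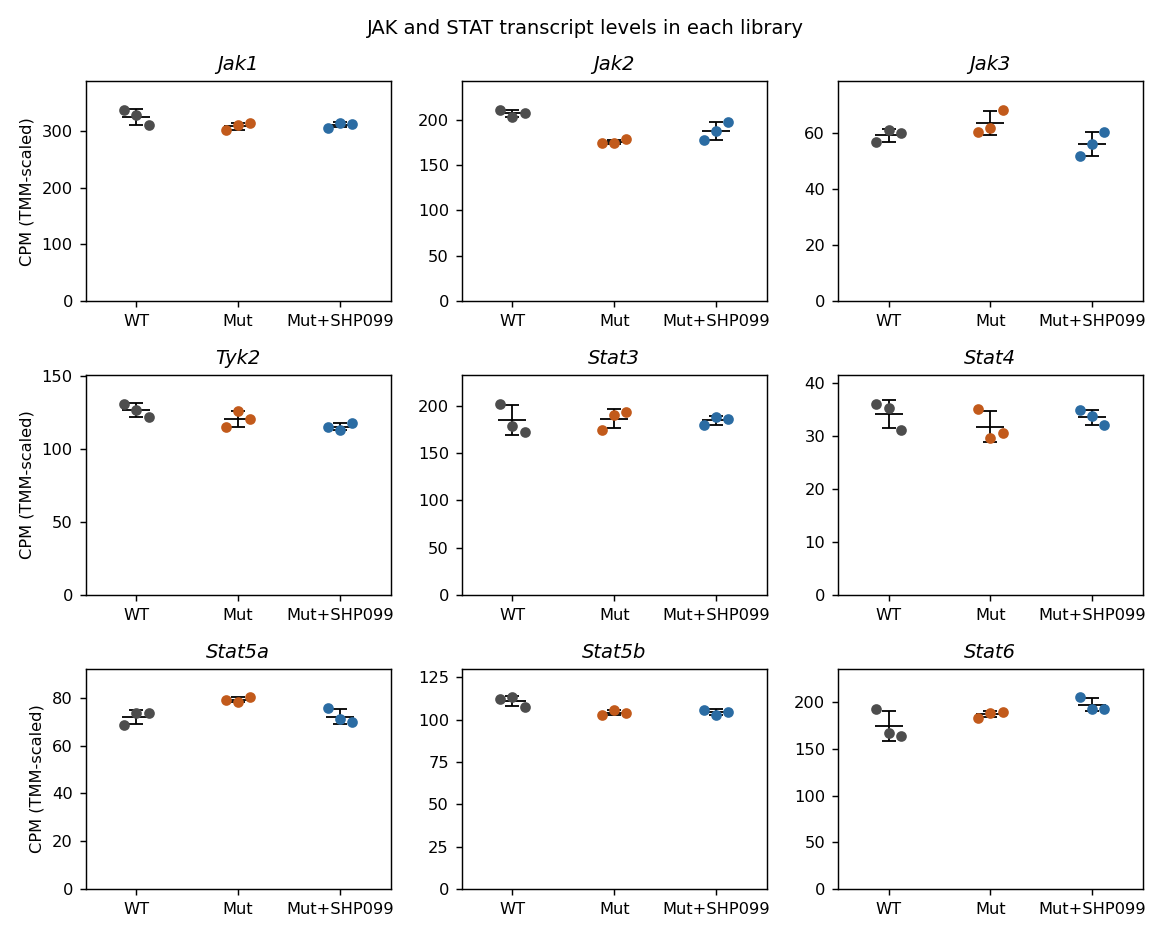
Transcript level of each gene in CPM (vertical axes start at 0) in WT vehicle, mutant vehicle (Mut) and SHP099-treated mutant (Mut+SHP099) cells; points are libraries in replicate order, bars are the mean and SD of 3. Jak2 is lower in all 6 mutant libraries than in WT, and Stat5a is highest in the mutant vehicle libraries.

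Among the kinases, Jak3 had the largest difference. It stood at 60.6, 61.9 and 68.4 CPM with vehicle and at 52.1, 56.4 and 60.5 CPM with SHP099 in replicates 1 to 3. Every treated library was lower than its own vehicle library, by 0.13 to 0.22 on the log2 scale, while the highest treated and the lowest vehicle library lay next to each other. The log2 fold change was -0.18 ± 0.06 (SE; 95% interval -0.32 to -0.03; edgeR adjusted p = 0.0772), which missed the threshold. With the replicate number as a block the difference passed, at -0.18 on all 9 libraries (edgeR adjusted p = 0.0236) and at -0.18 ± 0.04 on the 6 mutant libraries alone (adjusted p = 0.00168), the last in a fit that called 42.8% of tested genes. With the length and GC trend also removed it was -0.10 in both and did not pass (adjusted p = 0.150 and 0.0556). The block on all 9 libraries also groups the WT libraries by number, although they did not pair with the mutant ones.

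Jak2, the kinase of the IL-3 and erythropoietin receptors, stood at 175, 174 and 178 CPM with vehicle and at 177, 187 and 197 CPM with SHP099. All 3 pairs differed upwards, by 0.02, 0.10 and 0.14 on the log2 scale, but the groups overlapped. The fitted log2 fold change was 0.09 ± 0.04 (95% interval -0.01 to 0.19; edgeR adjusted p = 0.162). Without SHP099 replicate 1 it was 0.14 (adjusted p = 0.0439), and with the length and GC trend removed it was 0.17 (adjusted p = 0.0242; 16.6% of tested genes called), both past the threshold.

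Jak1, the partner kinase of gp130 and of the interferon receptors, differed by 0.01 ± 0.04 (95% interval -0.08 to 0.10), with all 6 mutant libraries between 301 and 314 CPM. Tyk2, which serves the type I interferon and IL-12 receptors, differed by -0.06 ± 0.04 (95% interval -0.16 to 0.03). Its treated libraries, at 115, 113 and 118 CPM, lay among or below the vehicle ones, at 115, 126 and 120.4 CPM. Neither passed the test, and for both the interval leaves room only for differences under 0.2 on the log2 scale.

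Stat5a, one of the pair of STATs downstream of IL-3 and of mutant FLT3, stood at 79.0, 78.1 and 80.1 CPM with vehicle and at 75.6, 70.9 and 69.6 CPM with SHP099. Every treated library lay below every vehicle library, and the pairs differed by -0.06, -0.14 and -0.20. The log2 fold change was -0.13 ± 0.04 (95% interval -0.23 to -0.04; 0.911-fold; edgeR adjusted p = 0.0488), just inside the threshold. The call held in 3 of 17 alternatives, adjusted p values running from 0.0113 to 0.181; leaving out any vehicle library, or SHP099 replicate 2 or 3, ended it (-0.14 to -0.11), and DESeq2 (-0.12, adjusted p = 0.0814) did not make it. With the replicate number as a block on all 9 libraries it was -0.13 and no longer passed (adjusted p = 0.0772). That fit also groups the WT libraries by number, although they did not pair with the mutant ones. With the block on the 6 mutant libraries, a fit added after seeing the data, the Stat5a difference was -0.14 ± 0.04 (adjusted p = 0.0113).

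Its neighbour Stat5b did not pass, and its groups overlapped. The vehicle libraries read 102, 106 and 104 CPM and the treated ones 106, 103 and 105 CPM, with a log2 fold change of 0.00 ± 0.03 (95% interval -0.07 to 0.08; edgeR adjusted p = 0.947). The Stat5a share of the pair, per length, was 50.8%, 49.8% and 50.8% with vehicle and 48.9%, 48.1% and 47.1% with SHP099. The 2 sets did not overlap, and the mean fell by 2.42 percentage points, with every pair lower, by 1.71 to 3.65 points. The exact permutation test over the 20 ways to regroup 3 and 3 gave p = 0.1 (two-sided), the smallest it can give, and 0.15 after Benjamini-Hochberg adjustment over the 3 group comparisons of this share.

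**Figure D3:**
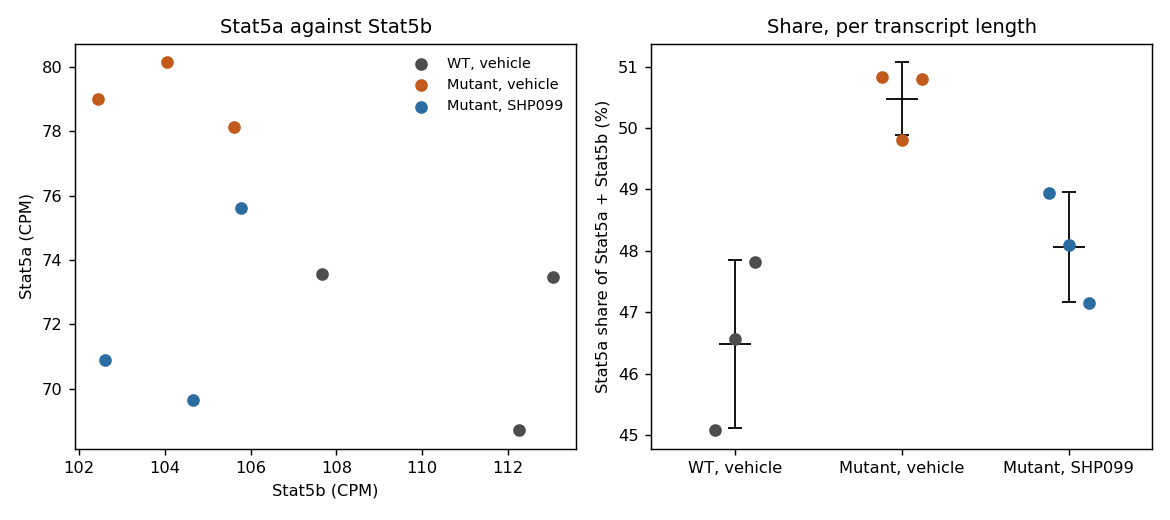
Left, Stat5a (vertical axis) against Stat5b (horizontal axis) in CPM for each library, with axes that do not start at 0; right, the Stat5a share of the pair in percent, per transcript length, with the mean and SD of 3 libraries. The mutant vehicle libraries lie at shares of 49.8% to 50.8%, above all WT and all SHP099-treated libraries.

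Among the other STATs, Stat6, which IL-4 and IL-13 activate, stood at 183, 189 and 189 CPM with vehicle and at 205, 193 and 193 CPM with SHP099. The groups did not overlap, yet the log2 fold change of 0.08 ± 0.06 (95% interval -0.06 to 0.21; edgeR adjusted p = 0.411) missed the threshold, and pairs 2 and 3 differed by 0.03 each. Stat3, the main STAT of IL-6, differed by -0.01 ± 0.06 (95% interval -0.15 to 0.13), a sign that changed in 9 of 17 alternatives. Stat4 differed by 0.08 ± 0.08 (95% interval -0.10 to 0.26), the widest interval of the 9 and the one at the lowest level, 29.6 to 35.1 CPM in the 6 mutant libraries.

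The block and the transcript length bear on how many members passed. Same-numbered mutant libraries deviated together, so the replicate numbers pair them, and the block on the 6 mutant libraries called 5563 genes against 2890 and 2 members, Jak3 and Stat5a. With the length and GC trend removed as well, 5 members passed, where 40.3% of tested genes did: Jak1 (0.08), Jak2 (0.16), Stat3 (0.09) and Stat6 (0.09) higher and Stat5a (-0.10) lower. Without SHP099 replicate 3, the library with the most Rn45s counts, Stat5a differed by -0.11 (adjusted p = 0.181), Jak3 by -0.23 (adjusted p = 0.0509) and Jak2 by 0.05 (adjusted p = 0.443). Of the 9 members, 8 have transcripts longer than the median of 3026 bases over tested genes with a length.

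The second comparison sets mutant against WT cells, both with vehicle. Jak2 fell and Stat5a rose, both by less than 0.25 on the log2 scale, and the other 7 members did not pass. Called members were 2 of 9, where 31.6% of tested genes were called, 16.9% higher and 14.7% lower. The groups did not overlap for Jak2, Stat5a and Stat5b, 3 of 9 where 45.1% of tested genes were so separated, 24.6% higher and 20.5% lower. The median absolute log2 fold change was 0.10 over the members and 0.16 over all tested genes, again not matched for level.

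Jak2 stood at 211, 203 and 207 CPM in WT libraries and at 175, 174 and 178 CPM in mutant vehicle libraries. Every mutant library lay well below every WT library, and the spread within each group was small (SD 4.0 and 2.16 CPM). The log2 fold change was -0.24 ± 0.04 (95% interval -0.33 to -0.14; 0.849-fold; edgeR adjusted p = 0.00331). It passed in all 15 alternatives run, between -0.32 and -0.22. In the same libraries all 6 megakaryocyte markers and all 5 tested erythroid markers were called lower in mutant cells. Summed levels fell from 2458 to 3103 CPM in WT to 1105 to 1486 CPM for the megakaryocyte list, and from 289 to 470.4 CPM to 102 to 176 CPM for the erythroid list, whose globin genes Hba-a1 and Hbb-bt were at 0. The mast cell and basophil list had 8 of 10 lower (2236 to 2474 CPM against 1117 to 1643 CPM) and the neutrophil list 7 of 11 lower and 1 higher. The monocyte and macrophage list had 2 of 7 higher and 1 lower, and the myeloid progenitor list 1 of 10 higher and 1 lower. Of 3 eosinophil markers 2 were lower and 1 higher, and of 4 tested dendritic cell markers 1 was lower. The part of these lists in the Jak2 difference was not tested, and in bulk samples fewer cells of a type and less RNA per cell cannot be told apart.

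The remaining kinases differed less. Jak1 stood at 337, 328 and 309 CPM in WT and at 301, 310.0 and 313 CPM in mutant vehicle libraries, a log2 fold change of -0.08 ± 0.04 (95% interval -0.17 to 0.01; edgeR adjusted p = 0.18). With the length and GC trend removed it was -0.13 (adjusted p = 0.0252), and without WT replicate 3 it was -0.13 (adjusted p = 0.0342). Tyk2 differed by -0.07 ± 0.04 (adjusted p = 0.25) and Jak3 by 0.10 ± 0.06 (adjusted p = 0.26). Neither passed, and for Jak3 the WT libraries, at 56.8, 61.1 and 60.2 CPM, overlapped the mutant ones.

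Stat5a and Stat5b lay on opposite sides of their WT levels. Stat5a stood at 68.7, 73.5 and 73.6 CPM in WT libraries and at 78.1 to 80.1 CPM in mutant vehicle libraries, with no overlap. Its log2 fold change was 0.14 ± 0.04 (95% interval 0.04 to 0.23; 1.10-fold; edgeR adjusted p = 0.0348). The call held in 3 of 15 alternatives (adjusted p 0.0116 to 0.151), and leaving out any 1 of the 6 libraries ended it (0.11 to 0.14). Stat5b stood at 112, 113 and 108 CPM in WT and at 102 to 106 CPM in mutant vehicle libraries, also with no overlap, and its log2 fold change of -0.09 ± 0.03 (95% interval -0.17 to -0.02; adjusted p = 0.063) missed the threshold. It passed in 5 of 15 alternatives, among them DESeq2 (-0.11, adjusted p = 0.0364).

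The Stat5a share of the pair was 45.1%, 46.6% and 47.8% in WT libraries, below all 3 mutant vehicle libraries. The mean differed by 4.0 percentage points (46.5 ± 1.37% against 50.5 ± 0.590%), with an exact two-sided permutation p of 0.1, the smallest that 3 against 3 allows, adjusted to 0.15 over the 3 comparisons. From counts not divided by length the difference was 3.88 points.

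Stat6, Stat3 and Stat4 did not pass. Stat6 differed by 0.10 ± 0.06 (edgeR adjusted p = 0.236), where WT replicate 1, at 193 CPM, lay above the other WT libraries, at 167 and 163 CPM; without it the difference was 0.18 (adjusted p = 0.0166). Stat3 also had its highest WT value in replicate 1, at 202 CPM against 179 and 172 CPM, and differed by 0.01 ± 0.06 (95% interval -0.13 to 0.15). Stat4 differed by -0.10 ± 0.08 (95% interval -0.28 to 0.08).

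The third comparison sets SHP099-treated mutant cells against WT vehicle cells, in which genotype and treatment differ together. It shares its libraries with the other 2 comparisons, so its values are given beside theirs and not as separate evidence. Jak2 and Tyk2 were lower, 2 of 9 members called where 31.7% of tested genes were, 15.4% higher and 16.3% lower. Groups did not overlap for Jak2, Tyk2, Stat5b and Stat6, 4 of 9 against 47.9% of tested genes, 24.4% higher and 23.5% lower.

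Jak2, at 177 to 197 CPM against 203 to 211 CPM, was 0.15 ± 0.04 lower on the log2 scale (log2 fold change -0.15, 95% interval -0.24 to -0.05; edgeR adjusted p = 0.0273). The call ended when any WT library or SHP099 replicate 1 or 2 was left out (-0.16 to -0.11), and without SHP099 replicate 3 the difference was -0.20 (adjusted p = 0.0124). Tyk2 stood at 131, 127 and 122 CPM in WT libraries and at 113 to 118 CPM in treated ones, a log2 fold change of -0.13 ± 0.04 (0.911-fold; edgeR adjusted p = 0.0403). With the length and GC trend removed that difference was -0.01 (adjusted p = 0.854), and 4 of the 6 fits with 1 library left out did not make the call: those without WT replicate 1 or 2 or SHP099 replicate 1 or 2.

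Stat5a, at 69.6 to 75.6 CPM in treated and 68.7 to 73.6 CPM in WT libraries, differed by 0.00 ± 0.04 (95% interval -0.09 to 0.10; edgeR adjusted p = 0.964). Stat5b differed by -0.09 ± 0.03 (adjusted p = 0.072). The Stat5a share of the pair was 1.58 percentage points above WT, with overlapping libraries and an exact two-sided permutation p of 0.2. Stat6, at 193 to 205 CPM in treated libraries, was above all WT libraries; its log2 fold change of 0.18 ± 0.06 (95% interval 0.04 to 0.31; edgeR adjusted p = 0.0502) just missed the threshold and passed in 6 of 15 alternatives. Jak1 (-0.06), Jak3 (-0.08), Stat3 (0.00) and Stat4 (-0.02) did not pass.

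**Figure D4:**
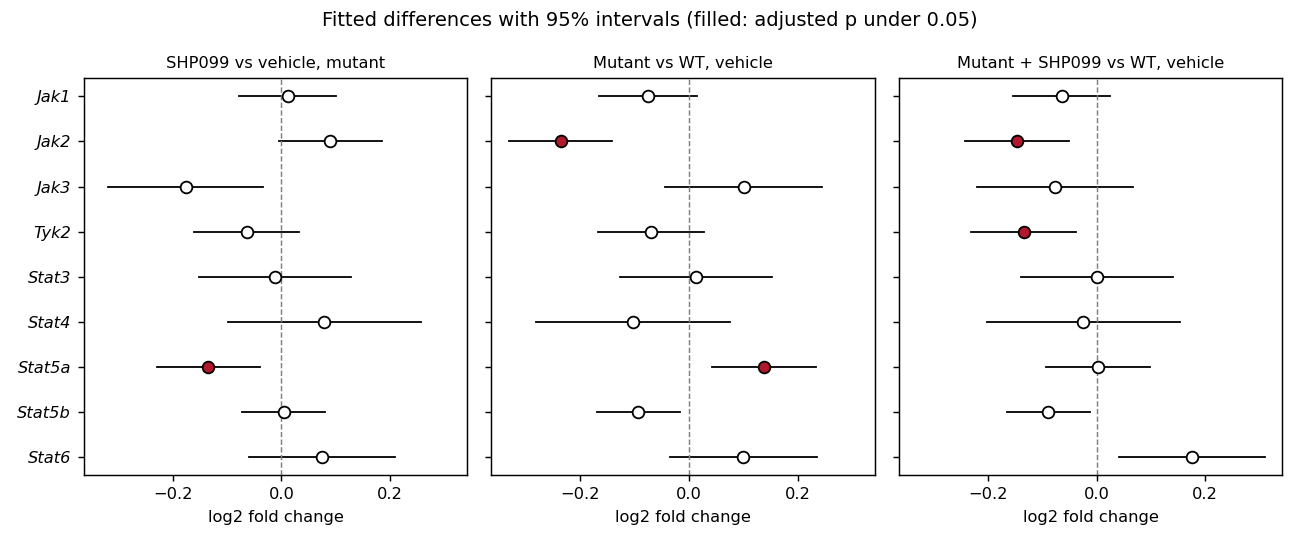
Fitted log2 fold changes (horizontal axes) with 95% intervals for the 9 genes in the 3 comparisons, from 1 model of all 9 libraries; filled points have an edgeR adjusted p under 0.05. Stat5a is -0.13 for SHP099 against vehicle and 0.14 for mutant against WT, 2 comparisons that share the mutant vehicle libraries, and Jak2 is -0.24 for mutant against WT.

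Other genes of the pathway give the setting in which the 9 were measured. Of 31 receptor chains that couple to JAKs, 28 were tested, and 24 did not pass for SHP099 against vehicle. The other 4 were higher and 0 lower, where 8.81% of all tested genes were called higher and 13% lower. With the replicate block on the 6 mutant libraries 16 were higher and 2 lower, in a fit that called 42.8% of tested genes (2791 higher and 2772 lower). With the length and GC trend removed as well the called receptors were 19 and 2, where 40.3% of tested genes were called. On all 9 libraries the block gave 6 and 0, where 1223 of all tested genes were higher and 1656 lower. The median log2 fold change of the list was 0.17, against 0.00 over all tested genes. Il10rb, a chain of the IL-10 receptor, rose by 0.38 ± 0.06 (edgeR adjusted p = 0.00161), Crlf2 by 0.25 ± 0.06 and the interferon receptor chain Ifnar2 by 0.21 ± 0.06. Il2ra rose by 1.72 ± 0.36, at only 0.310 to 0.759 CPM with vehicle and 1.21 to 2.41 CPM with SHP099. Of the receptors for the culture's own cytokines, Il3ra differed by 0.20 ± 0.10 (adjusted p = 0.185), the common beta chain Csf2rb by 0.12 ± 0.12, Il6ra by 0.06 ± 0.13 and Il6st, which encodes gp130, by -0.01 ± 0.21, none past the test in the model of all 9 libraries without the block. Csf2rb has a near-identical copy, Csf2rb2, which differed by 0.37 ± 0.16 (adjusted p = 0.117), so the levels of both are uncertain.

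Between mutant and WT vehicle cells the receptors moved in both directions, 6 higher and 7 lower of 28. Of all tested genes, 16.9% were called higher and 14.7% lower. Csf2ra, the GM-CSF receptor alpha chain, stood at 146 to 172 CPM in WT and 77.1 to 87.9 CPM in mutant libraries (log2 fold change -0.93 ± 0.07; edgeR adjusted p = 8.4e-05). Epor, the erythropoietin receptor, fell by 1.33 ± 0.23, in the libraries whose erythroid markers were lower. Il12rb2 rose by 0.51 ± 0.09. Of the receptors for the culture's own cytokines, Il6ra was higher by 0.48 ± 0.13 (adjusted p = 0.0189) and Il6st by 0.74 ± 0.21 (adjusted p = 0.0254). Il3ra, Csf2rb and Csf2rb2 did not pass. In SHP099-treated mutant against WT cells 11 were higher and 3 lower, where 15.4% and 16.3% of all tested genes were. The 4 smallest p values of the list belonged to Csf2ra (-1.04 ± 0.07), Ifnar2 (0.49 ± 0.06), Il12rb2 (0.53 ± 0.09) and Il10rb (0.29 ± 0.06). Il6ra (0.54 ± 0.13) and Il6st (0.74 ± 0.21) were also among the higher.

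Stat2, a STAT of the type I interferon response, was also measured. It stood at 36.2, 34.9 and 35.4 CPM with vehicle and at 29.8, 31.3 and 27.96 CPM with SHP099, without overlap, a log2 fold change of -0.26 ± 0.05 (edgeR adjusted p = 0.00821). In the same treated libraries Stat2 was 0.32 ± 0.05 lower than in WT cells (log2 fold change -0.32, edgeR adjusted p = 0.00233). Its call was made in every alternative run for both comparisons. Mutant vehicle cells differed from WT by -0.06 ± 0.05 (adjusted p = 0.392), which did not pass, although the groups did not overlap.

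Of 19 inhibitors of the pathway, 1 rose and 3 fell with SHP099, where 8.81% of all tested genes were called higher and 13% lower. With the length and GC trend removed 3 were called higher and 1 lower, where 16.6% of tested genes were called. The replicate block on the 6 mutant libraries gave 5 and 3, or 6 and 1 with the trend removed too. Those fits called 42.8% and 40.3% of tested genes. Socs1, a JAK inhibitor that cytokines induce, rose by 0.39 ± 0.09 (edgeR adjusted p = 0.0119). Cbl, a ubiquitin ligase for activated kinases, fell by 0.54 ± 0.09, from 135 to 138 CPM to 87.1 to 100.1 CPM. Socs4 fell by 0.28 ± 0.06 and Socs7 by 0.19 ± 0.05. In mutant against WT cells 2 rose and 3 fell, where 16.9% of all tested genes were called higher and 14.7% lower. Among them, Pias3, an inhibitor of STAT3, changed by -0.51 ± 0.07, Socs1 by -0.52 ± 0.09, Socs2 by 0.40 ± 0.09 and Sh2b3, the adaptor LNK, by -0.20 ± 0.06. In SHP099-treated mutant against WT cells 3 were higher and 4 lower, where 15.4% and 16.3% of all tested genes were. Pias3 was at -0.44 ± 0.07, Ptpn2 at 0.20 ± 0.04, Socs2 at 0.36 ± 0.09 and Sh2b3 at -0.23 ± 0.06.

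Of 10 adaptors and cofactors, 4 fell and 1 rose with SHP099, where 13% of all tested genes were called lower and 8.81% higher. The histone acetyltransferases Ep300 (-0.45 ± 0.05; edgeR adjusted p = 0.000701) and Crebbp (-0.42 ± 0.05), which STATs recruit, had the largest decreases, at 120.5 to 132 CPM and 29.6 to 31.9 CPM against 164 to 179.5 CPM and 39.2 to 43.2 CPM with vehicle. The chaperone gene Hsp90ab1 changed by -0.24 ± 0.05 and Nmi by 0.26 ± 0.06. In mutant against WT cells 2 rose, Hsp90ab1 (0.28 ± 0.05) and Ep300 (0.18 ± 0.05), where 31.6% of all tested genes were called. In SHP099-treated mutant against WT cells Crebbp (-0.39 ± 0.05), Sh2b1 (-0.36 ± 0.06) and Ep300 (-0.27 ± 0.05) were lower and Nmi (0.27 ± 0.06) higher. That comparison called 31.7% of all tested genes.

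Genes known as STAT5 targets went both ways, and 4 of the 15 (Cish, Socs1, Socs2 and Socs3) are also among the inhibitors, and Il2ra among the receptors. With SHP099, 5 rose and 2 fell, with a list median of 0.08, where 8.81% of all tested genes were called higher and 13% lower. With the replicate block on the 6 mutant libraries and the length and GC trend removed, 8 were called higher and 3 lower. That fit called 40.3% of tested genes. Ccnd2, which encodes cyclin D2, fell by 0.59 ± 0.06, from 269 to 291 CPM to 172 to 198 CPM (edgeR adjusted p = 0.000466). Pim3 fell by 0.42 ± 0.06 while Pim2, a kinase of the same family, rose by 0.45 ± 0.05. In mutant against WT cells 3 rose and 6 fell, with a median of -0.11, where 16.9% of all tested genes were called higher and 14.7% lower. The 4 smallest p values of the list belonged to the cytokine gene Osm (-1.04 ± 0.06), the survival gene Bcl2l1 (-0.41 ± 0.05), the cyclin gene Ccnd3 (-0.34 ± 0.05) and Pim2 (-0.34 ± 0.05). In SHP099-treated mutant against WT cells 3 were higher and 5 lower, where 15.4% and 16.3% of all tested genes were. Osm at -1.05 ± 0.06 and Pim3 at -0.53 ± 0.06 were among the lower, Id1 (0.28 ± 0.06) and Socs2 (0.36 ± 0.09) among the higher.

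**Figure D5:**
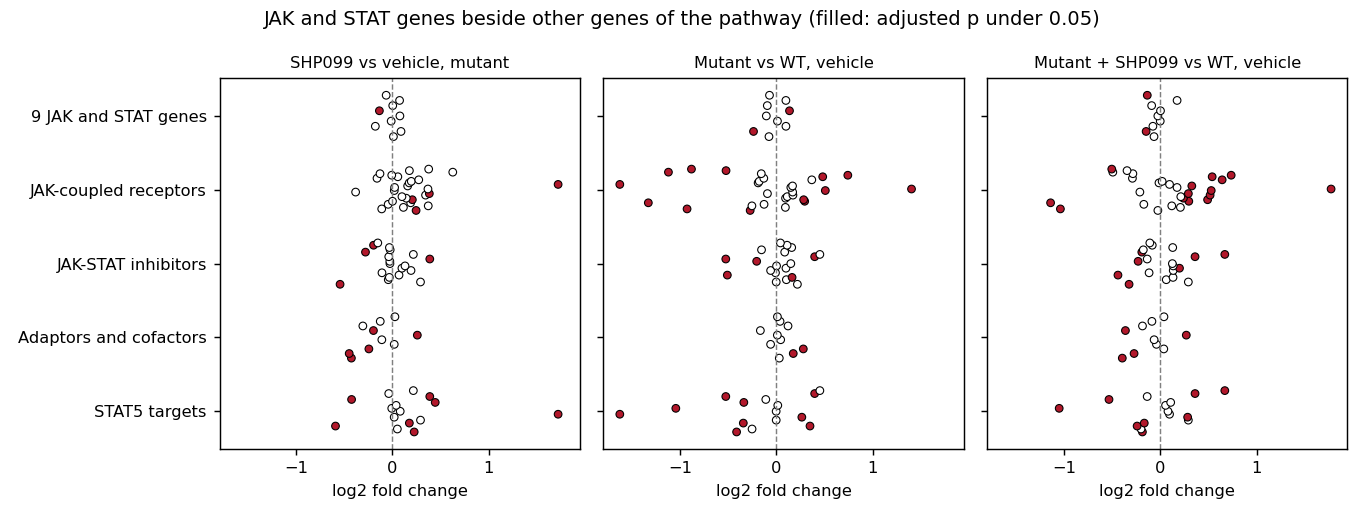
Log2 fold changes (horizontal axes) of the 9 genes and of 4 lists of other pathway genes (rows) in the 3 comparisons; each point is a gene, spread vertically for legibility, and filled points have an edgeR adjusted p under 0.05. The 9 genes lie between -0.24 and 0.18, while receptors range from -1.62 to 1.77.

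Over the 9 libraries, the genes whose log2 CPM was most like each member's were named from 8683 genes with a mean of at least 10 CPM, as a description in which all points share the same 3 groups. Jak2 had Rgs18 (Pearson r 0.98), Hist1h1c (0.98) and Clec1b (0.97), and 1.73% of genes had an r above 0.9 with it, the highest share of the 9. Stat5a had Notch1 (0.96), Runx3 (0.95) and Cbx1 (0.94). Stat5b had Fzr1 (0.97), Kctd10 (0.95) and Mus81 (0.95). Jak1 had Tom1l2 (0.98), Lrmp (0.97) and Ppp1r2 (0.94), and Tyk2 had Exoc4 (0.95), Spns1 (0.94) and Akt1 (0.92). Jak3 had Erc1 (0.95), Rabep1 (0.93) and Gyk (0.91), Stat3 had Atp6v1a (0.92), Fn1 (0.91) and Chm (0.91), Stat4 had Dach1 (0.96) and Aatk (0.93), and Stat6 had Mapkapk2 (0.96), Trem2 (0.95) and Rbbp8 (0.94). Among the members themselves r ran highest for Tyk2 and Stat5b (0.83) and Jak1 and Stat5b (0.82), and lowest for Jak2 and Stat5a (-0.78).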

How the data were processed

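Per the labels' protocols, the kit for the libraries was a stranded mRNA kit. FastQC, STAR, featureCounts, Subread and mm10 are named, without versions, in the submitters' processing notes; neither the annotation release nor the counting's strand setting is given in the sources used here. The authors deposited raw counts per gene symbol. The column of SHP099 replicate 3 was matched although its last character is not that of the title. The members and all lists were chosen with earlier results of these data known.

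In edgeR 4.0.16 (R 4.3.3), filterByExpr (minimum count 10) kept 13270 of 24421 genes, TMM scaled the library sizes, and all 9 libraries entered 1 quasi-likelihood fit by group, with two-sided tests and Benjamini-Hochberg adjustment over all tested genes at 0.05. The SE is the absolute log2 fold change over the square root of F. Coordinates and lengths come from GENCODE M21 (GRCm38). The length and GC trend was a lowess fit (span 0.3) per library. The titles number the replicates. Across genes, deviations from the group mean correlated at 0.54, 0.60 and 0.56 between same-numbered mutant vehicle and SHP099 libraries, against -0.36 to -0.23 otherwise, which pairs the mutant libraries; WT numbers did not pair with them (-0.13 to -0.05). The replicate block on all 9 libraries used the WT numbers all the same. Replicates differed by more than sampling noise. Named pathway genes are up to 4 called members per list and comparison with the smallest p, besides the receptors of the culture's cytokines, chosen after their values were seen; the named likeness genes are the top 3 per member, leaving out predicted models and RIKEN clones. Some genes these rules take are not reported here. Alternatives were RLE size factors, DESeq2 1.42.0, 2 other filters, each library left out, a replicate block, the 2 groups alone, Rn45s left out and the trend removed; the block fits on the mutant libraries alone were added after seeing the data. Scripts were tested on simulated data.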

Additional observations from a re-analysis of the deposited data

How the results depend on the processing

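Members called for SHP099 against vehicle, 1 in the model reported, numbered 0 with RLE size factors, no low-count filter, a 1 CPM filter, the 2 groups alone, Rn45s left out or DESeq2, 0 to 2 with 1 library left out (2 without SHP099 replicate 1), 2 with the replicate block on the mutant libraries (5563 genes called against 2890) and 5 with block and trend removal together (5239 genes). A different member made up the 1 with the replicate block on all 9 libraries (Jak3, adjusted p = 0.0236; Stat5a 0.0772) and with the trend removed, alone or with that block (Jak2, higher, 0.0242 and 0.0234; Stat5a 0.135 and 0.176). Without SHP099 replicate 3, 1767 genes were called, the lowest of the fits with 1 mutant library left out, which reached 2539. For mutant against WT, 2 members became 1 with the replicate block or the 2 groups alone, 4 with block and trend removal, and 1 to 3 with 1 library left out; for treated mutant against WT they were 0 to 2 with 1 library left out. With the 2 groups alone, 1432 genes were called higher and 1976 lower in mutant against WT, where the model reported called 2248 and 1951. The mean difference of the Stat5a share within pairs (the replicate block) was -2.42 points, with an exact sign-flip permutation p of 0.25, the smallest 3 pairs allow.

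Signs turned 39 times, in 7 members, each time for a value that had not passed. For SHP099, Stat3 became 0.0021 (1 CPM filter), 0.0030 (Rn45s left out), 0.00032 (DESeq2), 0.091 (trend removed, alone or with the block) or 0.088 (block and trend, mutant libraries), and Tyk2 0.024 (trend removed, alone or with the block) or 0.022 (block and trend, mutant libraries); of these only Stat3 in the last fit then passed (edgeR adjusted p = 0.0215). For mutant against WT, Stat3 became -0.0064 (RLE), -0.011 (1 CPM filter), -0.016 (2 groups alone), -0.0053 (Rn45s left out) or -0.0043 (DESeq2). For treated mutant against WT, Stat3 became -0.0069 (RLE), -0.0087 (1 CPM filter), -0.0023 (Rn45s left out) or -0.0040 (DESeq2), Stat5a -0.0044 (RLE), -0.0062 (1 CPM filter) or -0.0012 (DESeq2), and Jak3 0.078 and 0.076 with the trend removed, without and with the block. With 1 library left out, values ran for SHP099 from -0.056 to 0.030 (Stat3), -0.0045 to 0.039 (Jak1) and -0.0070 to 0.031 (Stat5b), for mutant against WT from -0.055 to 0.085 (Stat3), and for treated mutant against WT from -0.052 to 0.073 (Stat3), -0.094 to 0.020 (Stat4) and -0.034 to 0.020 (Stat5a). The cause of these changes was not tested.

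Over the alternatives, called receptors for SHP099 ran from 2 to 19 higher and 0 to 2 lower, inhibitors from 1 to 6 and 1 to 3, cofactors from 0 to 1 and 3 to 5, and STAT5 targets from 3 to 8 and 2 to 3. For mutant against WT the ranges were 2 to 7 and 5 to 8, 1 to 5 and 2 to 3, 1 to 2 and 0 to 1, and 2 to 4 and 6 to 6, in the same order. For treated mutant against WT they were 7 to 12 and 2 to 3, 1 to 6 and 2 to 4, 0 to 1 and 2 to 4, and 1 to 4 and 2 to 5. The fits also differed in the share of all tested genes called. For SHP099 it was 42.8% with the replicate block on the mutant libraries against 21.8% in the model reported.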
